A study of Mus musculus with 4 samples.

Results

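Endothelial cells high in immediate-early genes were picked out in the single-cell libraries of P2 and adult mouse hearts. For every cell the UMIs of Fos, Jun, Junb, Atf3, Zfp36, Btg2 and Socs3 were added and divided by all UMIs of the cell. A UMI (unique molecular identifier) marks 1 captured transcript. Cells with at least 1 UMI of the endothelial genes Pecam1, Cdh5 and Egfl7 were ranked by this 7-gene value within their library, and those in the top 10% are the chosen cells. They numbered 588 of 5871 such cells at P2 and 411 of 4109 in the adult. The lower 50% of the ranking, 2935 and 2054 cells, served for comparison and are called low cells. In all, the chosen cells were 999 of the 21920 barcodes held as cells in the 4 libraries of the series.

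The 4 libraries came from C57Bl6J hearts at embryonic day 12 (E12) and 15 (E15), at postnatal day 2 (P2) and at 8 weeks (adult). Cells were sorted as CD31+/CD45-, that is, positive for the endothelial surface protein encoded by Pecam1 and negative for the leukocyte protein encoded by Ptprc. The pools, each of which gave 1 library, were made of 37 hearts for E12, 48 for E15, 21 for P2 and 6 for the adult. No other genotype and no treatment is given, so the groups share strain, sort and kit. All cells were frozen after the sort and thawed before loading. Single cells were released by enzymes for 20 min at E12 and 30 min at E15, and for 20 min followed by a second 30 min with another mix at P2 and in the adult. Dead cells were then removed with a kit from the embryonic cells, whereas P2 and adult cells were sorted again for live cells. Red blood cells were lysed in the adult samples only. The study left endothelial cells expressing immediate-early genes out of its own clustering.

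Immediate-early genes are transcribed within minutes of a stimulus, without new protein synthesis, and their RNAs are short-lived. Many encode transcription factors, such as the FOS and JUN proteins that together form AP-1, and others encode inhibitors that end the same response. In endothelium they are known to answer growth factors, cytokines and changes in blood flow, and in cells taken from solid tissue also the enzymes and warming of the dissociation.

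UMIs were summed over the cells of a group and are given as CPM, the counts of a gene per 1000000 UMIs of the group. The libraries count the 3' end, so a gene's level was not scaled by its length. A ratio is the CPM of chosen cells over that of low cells of the same library, with an exact 95% interval for counting error only. With 1 library a stage there is no replicate, no test was possible, and cells are not replicates of a stage. A ratio within clusters compares chosen and low cells of the same clusters, each cluster weighted by the UMIs of its chosen cells. A gene is said to be past the fold when its ratio is at least 2 or at most 0.5, and it was examined in a library where it had at least 20 CPM over all endothelial-marker cells.

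The value that chose the cells had a threshold of 1.05% of UMIs at P2 and 1.69% in the adult. The last cell inside and the first outside were close, at 1.0536% and 1.0525% at P2 and at 1.6927% and 1.6919% in the adult. The median value was 1.40% in chosen and 0.0661% in low cells at P2, and 2.49% and 0.0689% in the adult. Median depth was 4093 UMIs in chosen and 4513 in low cells at P2. In the adult it was 2030 and 1356.5, so the adult chosen cells were the deeper ones. The mitochondrial share of UMIs was lower in the chosen cells, with medians of 2.94% against 3.94% at P2 and 3.52% against 4.64% in the adult. The P2 and adult libraries shared 39 barcodes, where independent draws from the barcode pool give 33.9, and no barcode was chosen in both.

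All 4 libraries held UMIs of the 7 genes, at levels that differed widely. In cells with an endothelial-marker UMI the 7 genes together reached 650 CPM (interval 625 to 675) in the E12 library and 818 CPM (793 to 843) in that of E15. P2 cells were at 3836 CPM (3813 to 3858) and adult cells at 6329 CPM (6271 to 6386). With every cell thinned to 500 UMIs the levels were 631, 791, 3830 and 5351 CPM. Thinning left out 48 E12 and 215 E15 cells below that depth. After thinning, 0.335% of E12 cells, 0.678% of E15 cells, 13.7% of P2 cells and 17.8% of adult cells had at least 5 UMIs of the 7 genes. Both postnatal libraries thus stood above both embryonic ones for each of the 7 genes, for example Fos at 223, 275, 1411 and 1871 CPM and Atf3, a stress-induced factor that binds the same kind of site as AP-1, at 33.2, 29.6, 135 and 281 CPM in order of age. Age, the length and enzymes of digestion and the way live cells were kept changed together, and their parts in this difference cannot be told apart.

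The 7 genes were used in the choice, so their excess in chosen cells is given as a description. Fos stood at 5961 CPM in chosen against 191 CPM in low cells at P2 and at 9099 against 92.7 CPM in the adult. It supplied 40.2% of the 7-gene UMIs of chosen P2 cells and 32.7% of those of chosen adult cells. A chosen cell held UMIs of a median of 6 of the 7 genes at P2 and 7 in the adult, against 2 and 1 in low cells. All 7 genes were found in 265 of the 588 P2 cells (45.1%) and in 207 of the 411 adult cells (50.4%). Thinned to 1000 UMIs, chosen cells still held a median of 5 and 6 of the genes and low cells 1 in both libraries. At that depth 52 chosen and 559 low adult cells were left out as too shallow.

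To see whether the genes were high in the same cells, each was measured in cells chosen by the other 6. Every gene stood well above its level in low cells in both libraries. The genes for the AP-1 proteins had ratios of 16.2 (Fos, interval 15.7 to 16.8), 6.91 (Jun, 6.61 to 7.22) and 13.8 (Junb, 13.3 to 14.4) at P2, and of 36.5 (33.8 to 39.4), 13.7 (12.9 to 14.6) and 29.6 (27.3 to 32.2) in the adult. Atf3 had 19.4 and 52.8, and Socs3, an inhibitor of cytokine signalling, 11.97 and 36.4. Zfp36, whose protein speeds the decay of short-lived mRNAs, had 18.1 at P2 and 14.5 in the adult, and Btg2, a gene that restrains cell division, 9.04 and 8.66. The interval of Zfp36 ran from 16.3 to 20.2 at P2 and from 12.7 to 16.6 in the adult, so these overlapped, as did those of Btg2. The interval of each of the other 5 genes lay higher in the adult. Between 80.4% (Fos, P2) and 97.8% (Socs3, adult) of the cells chosen by 6 genes were also chosen by all 7. Not every alternative setting was run for these left-out ratios. Over the 70 values of each library under those that were, they ran from 3.58 to 26.4 at P2 and from 4.97 to 66.9 in the adult.

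**Figure D1:**
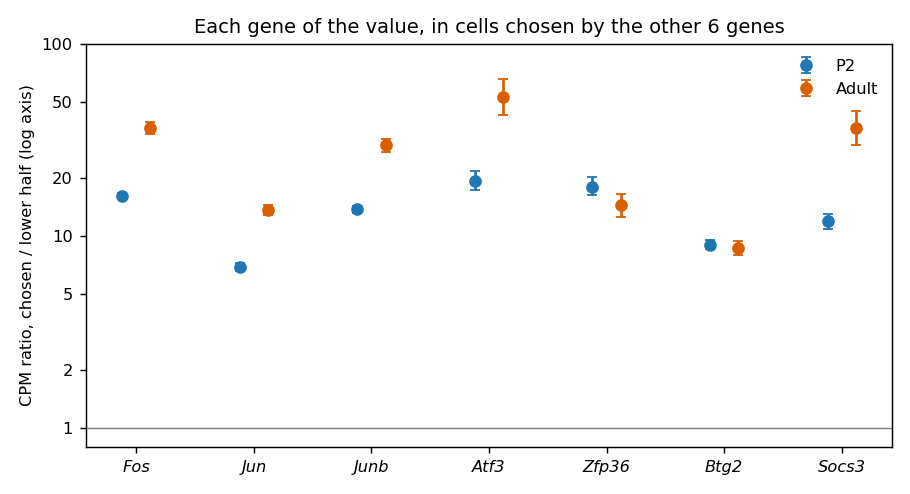
Points give the CPM ratio of chosen to low cells on a log axis for each of the 7 genes, when that gene was left out of the value that chose the cells, at P2 (blue) and in the adult (orange), with exact 95% counting intervals. All 14 points lie above 6, and Atf3 in the adult is the highest at 52.8.

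Across the genome 161 of 5870 genes examined (2.74%) were at least 2-fold higher in chosen cells at P2 and 168 of 5870 (2.86%) in the adult. At least 2-fold lower were 219 genes (3.73%) and 229 genes (3.9%). The median ratio of all genes examined was 0.912 at P2 and 0.882 in the adult, which is the level against which the lists below are to be read. Of the 5198 genes examined in both libraries, 88 were past the fold upward in both. They were 56.8% of the 155 higher ones at P2 and 64.7% of the 136 in the adult. The counts of higher genes here include the 7 genes of the value, which were used in the choice. The filter took the level over all cells, chosen ones included, so a gene could pass it through its level in them. Rnd1 at P2, for example, had 21.7 CPM over all cells, 67.4 CPM in chosen and 10.9 CPM in low cells. Downward 35 genes were shared, 45.5% of the 77 at P2 and 19.1% of the 183 in the adult. The overlap was not tested. The log2 ratios of the 2 libraries were compared over the 5191 genes examined in both that are not among the 7 genes of the value. The Pearson correlation was 0.586 and the Spearman correlation 0.391, a description across genes, which are not independent replicates.

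Other immediate-early transcription factors, none of them used in the choice, were the list with the highest ratio in both libraries among the 10 lists of response and endothelial genes, level with heat shock chaperones in the adult. Together they stood at 8065 CPM in chosen and 1466 CPM in low cells at P2, a ratio of 5.50 (5.40 to 5.61), and at 8805 and 1623 CPM in the adult, a ratio of 5.43 (5.24 to 5.62). Of the 23 genes of the list in the files, 19 were examined at P2 and 18 of them were past the fold upward, with a median of 5.42. In the adult 14 of 17 were, with a median of 3.88, and none was past the fold downward in either library. Egr1 (ENSMUSG00000038418), which encodes a zinc finger factor of the growth factor response, was at 43.8 CPM in low and 779 CPM in chosen cells at P2, a ratio of 17.8 (16.3 to 19.5). In the adult it was at 62.8 and 1143 CPM, a ratio of 18.2 (15.7 to 21.2). Ier2 (ENSMUSG00000053560, GRCm38 chr8:84661331-84662852) had 269 and 1931 CPM at P2 and 324 and 2153 CPM in the adult, with ratios of 7.18 (6.89 to 7.49) and 6.64 (6.16 to 7.15). Jund, the third JUN family gene, was less steep, at 3.68 and 3.88. Klf6 had 2.34 and 3.27. Among genes of the list singled out after their values were seen, Fosb, a FOS family gene, had 16.2 (14.4 to 18.2) in P2 cells and 50.1 (36.5 to 70.6) in adult cells, and Ier3 had 11.3 and 20.9. The orphan nuclear receptor gene Nr4a1 had the opposite order, 17.8 (15.4 to 20.5) in P2 cells and 4.84 (4.02 to 5.84) in adult cells, and so had Irf1, at 10.7 and 3.31. Klf10 was below the fold in both, at 1.52 and 1.99.

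Feedback regulators followed, a list of genes whose products end such responses that also holds some others. The list was at 11108 CPM in chosen and 2942 CPM in low cells at P2, a ratio of 3.78 (3.72 to 3.83), and at 16406 and 4915 CPM in the adult, a ratio of 3.34 (3.26 to 3.41). Past the fold upward were 23 of 26 examined at P2 (median 3.73) and 19 of 30 in the adult (median 3.12), and none downward. Dusp1 (ENSMUSG00000024190), a phosphatase gene that switches off MAP kinases, stood at 272 and 1923 CPM at P2 and at 851 and 3871 CPM in the adult, with ratios of 7.08 (6.79 to 7.39) and 4.55 (4.33 to 4.78). Cdkn1a, the gene of the cell cycle inhibitor p21, had 7.60 and 3.52, and Nfkbia, whose protein holds NF-kappaB in the cytoplasm, 5.79 and 2.33. Sgk1 had 4.10 and 2.07, and 2.54 and 1.66 within clusters, where Dusp1 had 4.65 at P2. Btg1, a relative of Btg2, went the other way with 2.01 and 4.79. Of members named after their values were seen, Gadd45g had 7.91 and 9.87, Gadd45b 9.68 and 18.6, and Ppp1r15a, a phosphatase subunit gene that restores translation after stress, 5.97 and 13.1. The extracellular matrix gene Cyr61 had 6.58 and 6.78. Dusp6, which acts on ERK, had 3.36 (3.08 to 3.65) in P2 cells and 1.01 (0.851 to 1.20) in adult cells.

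Heat shock chaperones, which hold and refold damaged proteins, had the widest gap between the stages among these lists, a gap that could not be tested with 1 library each. Low cells had like levels, 4515 CPM at P2 and 4708 CPM in the adult. Chosen cells reached 7930 CPM at P2, a ratio of 1.76 (1.73 to 1.78), and 25541 CPM in the adult, a ratio of 5.42 (5.32 to 5.54). Past the fold were 4 of 13 genes examined at P2 (median 1.74) and 12 of 14 in the adult (median 4.26). Hspa1a (ENSMUSG00000091971), the stress-inducible HSP70 gene, was at 74.4 CPM in low and 718 CPM in chosen cells at P2, a ratio of 9.65 (8.95 to 10.4), and at 347 and 8025 CPM in the adult, a ratio of 23.1 (21.7 to 24.6). UMIs of Hspa1a were found in 44.4% of chosen P2 cells and 93.2% of chosen adult cells, against 16.5% and 26.3% of low cells. Its near-identical neighbour Hspa1b had far fewer UMIs, and how reads were divided between them is uncertain. Hspb1, a small heat shock protein gene, had 3.68 and 7.18, and the co-chaperone gene Dnaja1 1.95 and 4.01. Hspa8 and Hsp90ab1, chaperone genes that are active without stress, had 1.81 and 1.18 at P2 against 3.17 and 2.25 in the adult. Hsp90aa1 and Hsph1, named after their values were seen, had 1.74 and 1.30 at P2 against 7.35 and 9.89 in the adult. The mitochondrial chaperone genes Hspd1 and Hspe1 were near the median of all genes at P2, at 0.931 and 0.923, and at 2.40 and 2.77 in the adult. Chordc1 was not higher in either library, at 0.943 and 0.787. In the median chosen cell the list made up 0.692% of UMIs at P2 and 2.50% in the adult, and the 10% of chosen cells with most of it held 24.1% and 25.6% of its UMIs, so the excess was not that of a few cells. P2 and adult cells had the same digestion and second sort, but red blood cells were lysed in the adult samples only, and with 1 library each the stage, this step and the library cannot be told apart.

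**Figure D2:**
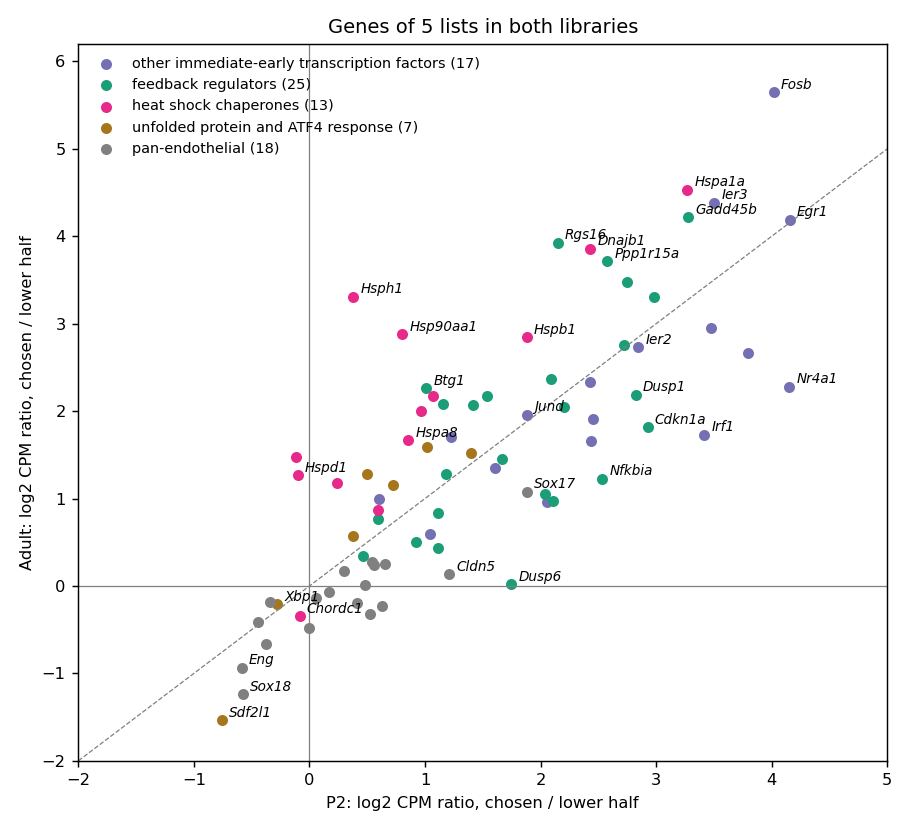
Each point is a gene of 5 lists examined in both libraries, with its log2 CPM ratio of chosen to low cells at P2 (horizontal) and in the adult (vertical). The dashed line marks equal ratios, and the numbers in the legend count genes. Of the heat shock genes past the fold in the adult, all lie above the line, Nr4a1, Irf1 and Dusp6 lie below it, and the endothelial genes lie around 0.

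The promoters of the listed genes were searched for the binding motifs of factors known to drive them, in windows of 250 bases before to 50 after the start site (RefSeq, GRCm38.p6), on both strands. Windows were at hand for all 7 genes of the value, 16 of the other immediate-early factors, 30 feedback regulators, 11 chaperones and 10 inflammatory genes. The heat shock element, searched as GAANNTTC, was found in 9 of the 11 chaperone genes, in Jun alone of the 7 genes, in 1 of the 16 other factors, in 2 of the 30 feedback regulators, in no inflammatory gene and in 7.86% of all 32851 windows. The cyclic AMP response element, TGACGTCA, was found in Btg2, in 1 of the 16 other factors and in 5 of the 30 feedback regulators, among them Dusp1, and in 1.79% of all windows. The CArG box, the site of serum response factor, was found in 1 of the 7 genes, Zfp36, in 1 of the other factors, in 1 feedback regulator and in 1.63% of all windows. The AP-1 letters TGANTCA, which do not overlap with the cyclic AMP element, were in none of the 7 genes, 1 of the 16 other factors and 2 of the 30 feedback regulators. They were in 1 of the 11 chaperone genes, 5 of the 10 inflammatory genes and 7.81% of all windows. Those 5 inflammatory genes were below the filter in both libraries, so their ratios were not examined. The NF-kappaB motif was found in Fos, in 7 of the 16 other factors, in 2 of the 30 feedback regulators, in 4 of the 11 chaperone genes, in 6 of the 10 inflammatory genes and in 8.46% of all windows. Some genes have several windows, so these counts of genes are not shares of windows. Counted by window, the heat shock element was in 58.8% for chaperones and the cyclic AMP element in 12.5% for feedback regulators. For the other factors the NF-kappaB motif was in 26.9% of windows and the CArG box in 15.4%, all of Egr2. A match describes these letters only and shows no binding. The windows printed belong to 3 genes of the immediate response and to the heat shock genes Hspa1a and Hspb1, which had the highest adult ratios among the chaperone genes named by rule. Capitals mark the matches. They begin 58 bases before the start site in Zfp36 (CArG box), 166 in Btg2 and 143 in Dusp1 (cyclic AMP element), 133 (NF-kappaB) and 104 (heat shock element) in Hspa1a, and 117 and 97 in Hspb1 (heat shock elements). The windows are those of Zfp36 (chr7:28379179-28379478, minus strand), Btg2 (chr1:134079106-134079405, minus strand), Dusp1 (chr17:26508423-26508722, minus strand), Hspa1a (chr17:34972107-34972406, minus strand) and Hspb1 (chr5:135887669-135887968, plus strand).
Zfp36: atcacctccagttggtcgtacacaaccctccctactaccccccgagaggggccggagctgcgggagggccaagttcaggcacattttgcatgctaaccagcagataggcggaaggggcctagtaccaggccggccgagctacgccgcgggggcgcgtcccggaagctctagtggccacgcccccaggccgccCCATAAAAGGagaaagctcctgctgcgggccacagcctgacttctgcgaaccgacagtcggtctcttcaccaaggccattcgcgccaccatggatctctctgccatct
Btg2: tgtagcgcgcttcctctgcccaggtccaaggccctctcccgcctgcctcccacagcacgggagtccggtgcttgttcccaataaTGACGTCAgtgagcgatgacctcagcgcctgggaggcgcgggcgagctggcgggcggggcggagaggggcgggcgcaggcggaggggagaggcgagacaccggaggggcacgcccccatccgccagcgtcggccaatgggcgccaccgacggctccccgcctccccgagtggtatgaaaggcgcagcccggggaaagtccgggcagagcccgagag
Dusp1: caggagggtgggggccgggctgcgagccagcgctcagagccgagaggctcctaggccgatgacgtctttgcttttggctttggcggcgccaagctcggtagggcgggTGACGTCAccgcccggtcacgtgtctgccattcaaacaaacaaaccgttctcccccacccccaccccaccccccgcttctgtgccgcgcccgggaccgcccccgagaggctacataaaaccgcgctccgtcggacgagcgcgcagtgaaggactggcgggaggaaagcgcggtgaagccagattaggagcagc
Hspa1a: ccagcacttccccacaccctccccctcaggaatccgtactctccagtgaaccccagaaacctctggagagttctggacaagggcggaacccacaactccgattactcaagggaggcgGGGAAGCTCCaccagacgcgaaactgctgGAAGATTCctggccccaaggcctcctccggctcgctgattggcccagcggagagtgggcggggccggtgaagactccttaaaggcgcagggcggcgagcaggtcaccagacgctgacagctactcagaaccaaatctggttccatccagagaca
Hspb1: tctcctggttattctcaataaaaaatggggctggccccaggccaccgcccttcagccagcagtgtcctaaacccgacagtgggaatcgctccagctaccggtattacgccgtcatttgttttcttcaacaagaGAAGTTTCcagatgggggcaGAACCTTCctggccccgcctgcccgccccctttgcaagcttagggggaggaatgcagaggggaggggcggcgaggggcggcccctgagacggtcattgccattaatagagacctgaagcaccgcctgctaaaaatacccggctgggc

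Flow-responsive genes, which endothelium switches on under laminar shear, were split. The list had a ratio of 3.0 (2.93 to 3.07) in P2 cells and 1.90 (1.81 to 2.01) in adult cells, with 3 of 5 genes past the fold in both. Klf2, the main shear-induced transcription factor, was at 1019 CPM in low and 3217 CPM in chosen cells at P2 (3.16, interval 3.07 to 3.24) and at 469 and 943 CPM in the adult (2.01, 1.85 to 2.19). Klf4, which is also in the list of other immediate-early factors, had 5.42 and 3.15, and the secreted protease gene Adamts1 2.98 and 2.03. Within clusters Adamts1 had 4.70 at P2. The other members did not share this. Nos3, the gene of endothelial nitric oxide synthase, had 0.790 (0.679 to 0.916) and 0.746 (0.564 to 0.975), and Thbd, the gene of thrombomodulin, 0.966 and 1.15.

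Inflammatory genes were sparse, and only 7 of 16 at P2 and 8 of 16 in the adult could be examined. The list had ratios of 2.63 (2.50 to 2.76) and 1.67 (1.53 to 1.81), with 2 genes past the fold upward at P2, and 3 upward and 1 downward in the adult. Within clusters the ratios of the list were higher, at 4.13 and 2.52. The chemokine gene Cxcl1 was at 14.7 CPM in low and 188 CPM in chosen cells at P2 and at 17.3 and 296 CPM in the adult, ratios of 12.8 (10.9 to 15.1) and 17.1 (12.8 to 23.1). Its UMIs were in 28.7% and 22.1% of the chosen cells. Icam1, an adhesion molecule for leukocytes, had 3.87 and 2.23, and 5.02 and 3.57 within clusters. Vcam1, another such molecule, was at 67.5 CPM in low and 80.3 CPM in chosen cells at P2 (1.19), and at 176 and 72.1 CPM in the adult (0.410). Within clusters its ratios were 2.93 and 0.996. The chemokine gene Ccl2 had 0.799 at P2, with 75.7% of its UMIs in chosen cells from 1 cell. Its ratio was 2.04 within clusters and 4.39 without cells that held markers of other cell types, so its direction depended on the cells compared. Nfkb1 had 1.13 and 0.831.

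Other stress responses had smaller ratios at P2. Genes of the unfolded protein and ATF4 response had a ratio of 1.38 (1.33 to 1.42) in P2 cells and 2.00 (1.88 to 2.12) in adult cells, with 2 of 7 and 4 of 9 genes past the fold upward, 0 and 1 downward. Atf4 itself had 2.03 and 3.0, and Dnajb9, a chaperone gene of the endoplasmic reticulum, 2.64 and 2.88. Hspa5, its main chaperone gene, had 1.42 and 2.43, Herpud1 1.30 and 1.49, and Xbp1 0.825 and 0.864. Of the genes of the oxidative and metal response, Hmox1, the haem-degrading enzyme gene, had 2.26 (1.90 to 2.68) and 4.59 (3.28 to 6.44), with 1.79 within clusters at P2. The antioxidant genes Gclm and Txnrd1 did not go with it, at 1.09 and 0.741 among P2 cells and 0.696 and 0.925 among adult cells. Srxn1 was below the filter, with 0.652 and 0.657. The list as a whole had 1.22 at P2 and 3.19 in the adult, where Mt1 carried it, a metallothionein gene at 244 CPM in chosen and 16.4 CPM in low cells. Without cells that held markers of other cell types, the adult ratio of Mt1 was 2.23 and that of the list 1.29. Interferon-response genes had 1.66 and 1.19, with 2 of 7 and 1 of 12 past the fold. Iigp1 led them with 3.91 and 2.12, then Rsad2 with 2.64 and 1.54. Within clusters Iigp1 had 2.80 and 1.84, and Rsad2, at 1.40 and 1.35, was not past the fold. Of the others, Isg15 had 1.79 and 1.16, Gbp2 1.86 and 1.11, and Irf7 1.77 and 0.820, the last with 1.13 within clusters at P2. The nuclear RNA Neat1 was higher, at 3.46 and 2.58, and Malat1 little so, at 1.27 and 1.17. Meg3 had 1.01 at P2 and 11.9 in the adult, where it was below the filter, had 2.04 within clusters and had UMIs in 3.65% of chosen cells. Ribosomal protein genes had 1.00 and 0.900, and mitochondrial transcripts 0.750 and 0.760.

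Outside all lists, the highest ratios by the smaller of both libraries were those of the transcript Gm12216, with 14.7 and 7.69. Next came Phlda1 (ENSMUSG00000020205, GRCm38 chr10:111506286-111508645), a pleckstrin homology domain gene. It was at 39.0 CPM in low and 296 CPM in chosen cells at P2 and at 26.9 and 378 CPM in the adult, ratios of 7.59 (6.80 to 8.48) and 14.0 (11.1 to 17.9). Sertad1 had 7.31 and 7.20. Pim3, a kinase gene, had 8.21 and 4.32. Hes1 and Id1, transcriptional repressor genes downstream of Notch and BMP signalling, had 5.06 and 3.92 at P2 against 5.42 and 3.35 in the adult. Apold1, an early gene of vascular endothelium, had 3.35 and 4.23, Ccnl1 2.95 and 3.14, and Pnrc1 2.91 and 2.75. These 9 genes kept ratios above 2 within clusters in both libraries, from 2.46 (Id1, P2) to 18.5 (Gm12216, P2). Ranked in the adult, the leading genes also held Gm12840 with 10.8 (22.9 within clusters), Rnd1 with 8.50, and Gsn with 10.2. At P2 Rnd1 had 6.19 (4.97 to 7.73), Gsn 0.692, and Gm12840, below the filter there, 1.87. Gsn, an actin-severing protein gene abundant in fibroblasts, was the exception among them, with 1.22 within clusters and 0.782 without cells that held markers of other types.

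**Figure D3:**
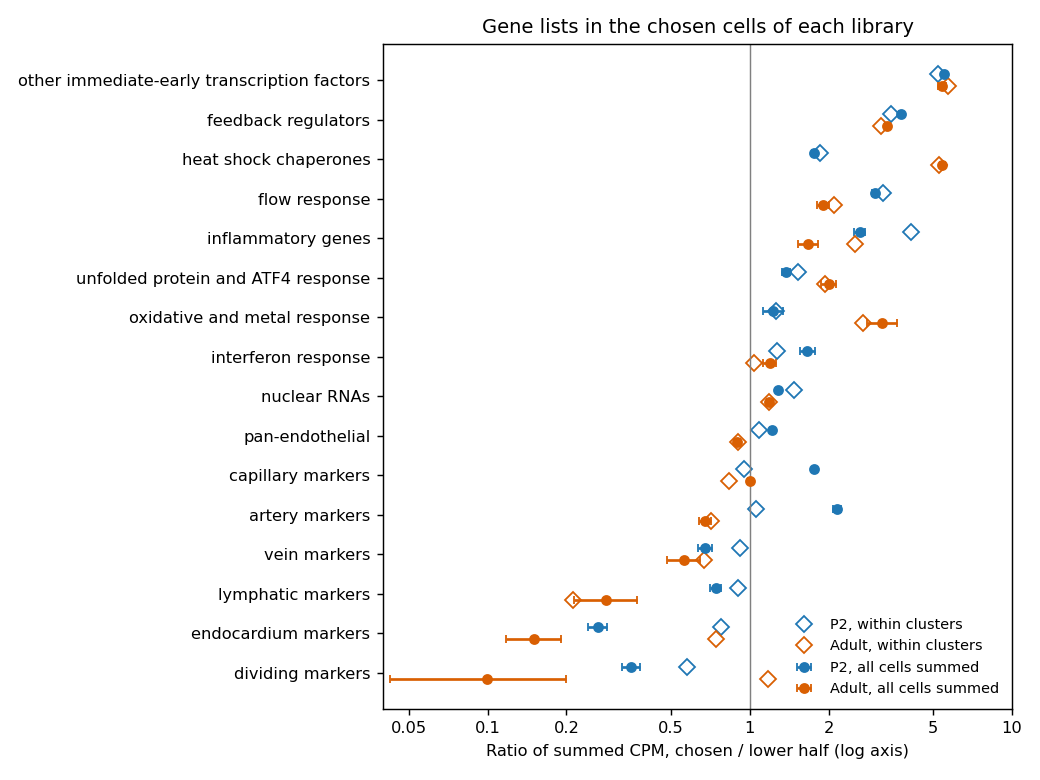
Filled points give the ratio of summed CPM, chosen over low cells, on a log axis for 10 lists and 6 sets of class markers, with exact 95% counting intervals, at P2 (blue) and in the adult (orange). Open diamonds give the same ratio taken within clusters. Within clusters inflammatory genes lie higher in both libraries, while capillary, artery and endocardium markers at P2 move toward 1.

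The pan-endothelial list had ratios of 1.21 (1.20 to 1.23) in P2 cells and 0.896 (0.872 to 0.920) in adult cells, with 2 and 1 of 18 genes past the fold upward and 0 and 1 downward. The genes of the endothelial condition itself were at 3082 CPM in chosen and 2810 CPM in low cells at P2, and at 3013 and 3911 CPM in the adult. Cldn5, a tight junction gene, had 2.31 (2.23 to 2.39) and 1.10 (1.01 to 1.19), with 1.46 within clusters at P2, and Esam 1.40 and 1.00. Eng, a TGF-beta co-receptor gene, had 0.666 and 0.524, Ramp2 0.736 and 0.750, and Emcn 0.790 and 0.883. Within clusters Esam had 1.04 and 0.889, Eng 0.912 and 0.664, Ramp2 0.852 and 0.770, and Emcn 1.09 and 0.847. Ramp2 overlaps Vps25 on the same strand, so its count is uncertain.

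Markers of endothelial classes differed between chosen and low cells. Endocardium markers were low, at 240 CPM in chosen and 914 CPM in low cells at P2 (0.263, interval 0.242 to 0.285) and at 79.7 and 529 CPM in the adult (0.151, 0.118 to 0.191). All 6 were past the fold downward at P2, as were the 3 examined in the adult. Markers of dividing cells had 0.353 at P2, again with all 6 past the fold, and 8.74 against 87.9 CPM in the adult. Capillary markers were higher at P2 (1.76, 1.75 to 1.78, 4 of 9 genes past the fold) and level in the adult (1.00, 0.987 to 1.01). Artery markers were higher at P2, at 1531 and 712 CPM, and lower in the adult, at 2085 and 3088 CPM. Vein markers had 0.675 and 0.559, lymphatic markers 0.740 and 0.284, and valve markers 0.346 and 0.425.

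The cells of each library were also clustered without the 7 genes of the value and the lists of response genes. The genes of the pan-endothelial list were not kept out. A cluster was named only where at least 2 of a class's markers were among its 10 leading genes. The class also had to lead by a mean log2 ratio of 1 or more. These limits were set after the cluster tables had been seen. Some clusters that met them were left unnamed, and the names may differ from those of the study. At P2 the capillary-like cluster, led by Car4, Timp4 and Aqp7, held 279 of its 1158 cells as chosen, 24.1% (interval 21.7 to 26.7), and with that 47.4% of all chosen cells. An artery-like cluster led by Cxcl12 and Glul had 70 of 351 (19.9%) and another led by Gja5 and Fbln5 had 15 of 103 (14.6%, 8.39 to 22.9). An unnamed cluster led by Vwf and Nuak1 had 17 of 88 (19.3%, 11.7 to 29.1). A small cluster led by Rgs5, a mural marker, and Col1a1, a fibroblast marker, had 6 of 35 (17.1%, 6.56 to 33.6). Its pan-endothelial genes were low, with a mean log2 ratio of -1.54 to the other cells, and it met the limits for fibroblast-like cells but was led by a marker of another type, so these 6 chosen cells lay among cells not like endothelium. A cluster led by Hba-a1, Apln and Adm, unnamed, had 71 of 884 (8.03%), the lymphatic-like cluster 16 of 175 (9.14%) and the dividing-like cluster 19 of 435 (4.37%). The endocardium-like cluster, led by Npr3, had the lowest share, 25 of 1255 (1.99%, 1.29 to 2.93). In the adult the endocardium-like cluster again had a low share, 4 of 200 (2.00%, 0.548 to 5.04), and the artery-like cluster had 29 of 773 (3.75%, 2.53 to 5.34). The highest adult share was that of a fibroblast-like cluster led by Gsn, Mfap4 and Col3a1, 13 of 32 (40.6%, 23.7 to 59.4), with pan-endothelial genes at a mean log2 ratio of -2.19 to the other cells, so these too were not like endothelium. A cluster led by Acta2 and Rgs5 had 4 of 24 (16.7%, 4.74 to 37.4), with -0.94 for the pan-endothelial genes. It met the limits for mural cells, with 4 markers and a mean log2 ratio of 5.21, but was left unnamed. Its chosen cells thus lay among mural-like cells. In the adult 248 of the 411 chosen cells (60.3%) lay in a cluster of 1197 cells led by Hspa1a, Socs3 and Atf3, although these genes had been kept out of the clustering. Capillary genes, Rgcc and Timp4, were also among its 10 leading genes, and it stays unnamed. A cluster led by haemoglobin genes, with a median of 967 UMIs, held 68 of 1325 (5.13%). It met the limits for erythroid cells, with 4 markers and a mean log2 ratio of 3.15, but was left unnamed. These shares describe where the chosen cells lay, and depth differed between clusters.

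**Figure D4:**
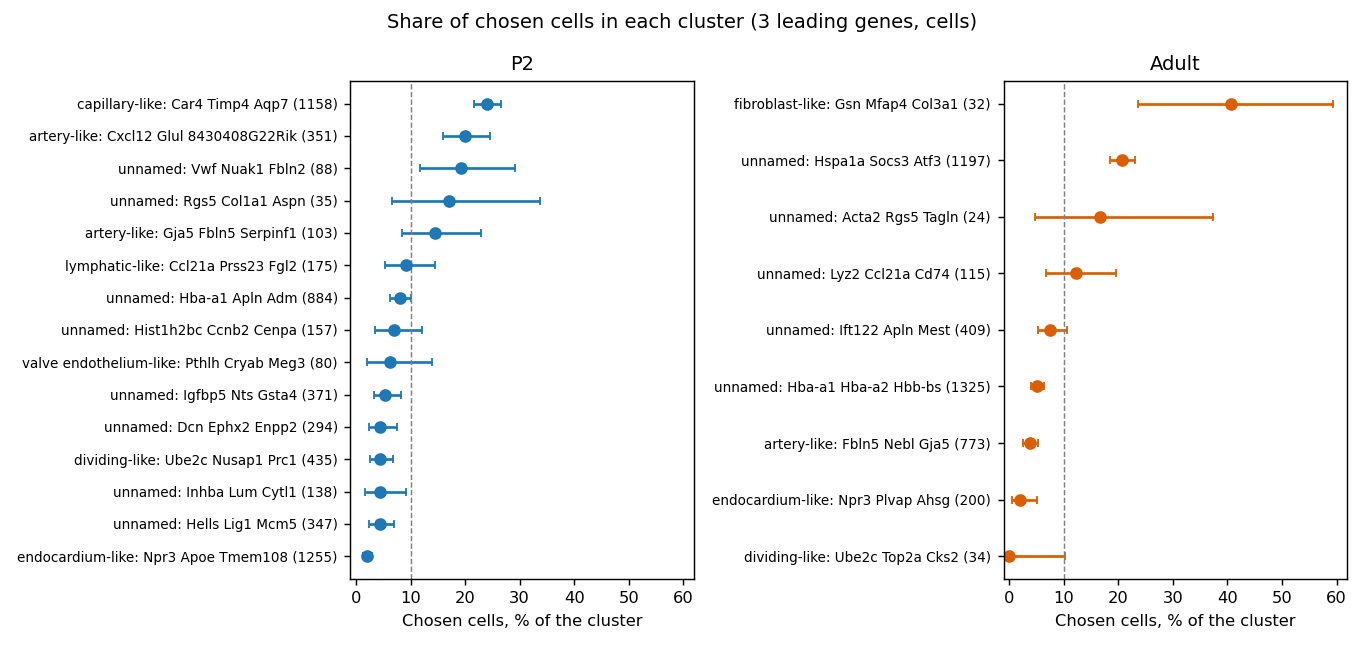
The share of chosen cells in each cluster is given in percent with an exact 95% binomial interval, for 15 clusters at P2 (left) and 9 in the adult (right). Labels give the name where one was given, 3 of the leading genes and the number of cells. The dashed line marks the 10% chosen overall. At P2 the capillary-like and artery-like clusters, an unnamed one led by Vwf and the one led by Rgs5, which was not like endothelium, have shares above the line, with intervals that reach below it for those led by Gja5 and Rgs5, and the endocardium-like cluster lies lowest at 1.99%.

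The immediate-early excess was also found within clusters. Weighted by the UMIs of the chosen cells of each cluster, the ratio of the other immediate-early factors was 5.20 at P2 and 5.70 in the adult. Over all cells it was 5.50 and 5.43. That of the feedback regulators was 3.45 and 3.16, against 3.78 and 3.34. Among the clusters with at least 10 chosen and 10 low cells, the ratio of the other immediate-early factors ran from 4.03 in the endocardium-like cluster to 7.71 over 12 clusters at P2 and from 4.15 to 7.13 over 5 clusters in the adult. For feedback regulators the ranges were 3.28 to 4.92 and 2.74 to 3.71. Heat shock chaperones ran from 1.42 to 2.12 at P2 and from 3.15 to 6.22 in the adult, so the ranges of the stages did not meet. Flow-response genes ran from 2.08 to 4.24 and from 1.46 to 2.18. Of the class markers, weighted as above, those of endocardium came to 0.779 and 0.744, the capillary markers to 0.952 and 0.836, the artery markers to 1.06 at P2 and 0.712 in the adult, the valve markers to 0.848 and 1.01, and the markers of dividing cells to 0.576 and 1.17. Weighted in the same way, 116 genes were at least 2-fold higher and 17 at least 2-fold lower at P2, against 159 and 159 in adult cells.

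The 8 genes described first, among the lowest in both libraries, had ratios closer to 1 within clusters. Igfbp5, the gene of a secreted binding protein of insulin-like growth factors, was at 1096 CPM in low and 292 CPM in chosen cells at P2 (0.266, interval 0.247 to 0.286) and at 219 and 39.3 CPM in the adult (0.179, 0.125 to 0.251). Within clusters its ratios were 0.692 and 0.316. Plvap had 0.320 and 0.140, and 0.881 and 0.700 within clusters. Fn1, the fibronectin gene, had 0.353 and 0.206, H19, an imprinted RNA of growing tissue, 0.367 and 0.0635, and Ctsh 0.432 and 0.190. The adult ratio of H19 (interval 0.0172 to 0.165) rested on 4 UMIs from 3 chosen cells. Within clusters Fn1 had 0.706 and 0.510, H19 0.833 and 0.358, and Ctsh 1.02 and 0.766. Bace2, Tmem2 and Arhgdib were between 0.308 and 0.428 in both, and within clusters between 0.657 and 0.987, so none of these 3 stayed past the fold. Outside the lists and at 50 CPM or more, the lowest ratios at P2 were, beside that of Igfbp5, those of Tmem108 (0.206), Mdk (0.259), Apoe (0.260) and Cgnl1 (0.277), with 0.623 to 0.939 within clusters. In the adult Tmem108 had 0.0525 (0.00630 to 0.193), from 2 UMIs in chosen cells, and 0.248 within clusters. Cgnl1 had 0.461 and Apoe 0.731 there, and Mdk, below the filter, 0.318. By the same limits Ahsg was among the lowest in the adult with 0.158, and had 0.451 at P2, where it came to 1.60 within clusters.

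Levels of the other immediate-early factors followed the value over its whole range, which was not so for all genes and lists. At P2 the other immediate-early factors were at 1466 CPM in the lower 50%, then 2688, 3836 and 5371 CPM in cells between the 50th, 70th, 80th and 90th percentiles, and 6950 and 9238 CPM on either side of the 95th. In the adult the same steps gave 1623, 2049, 2991, 4524, 7265 and 10239 CPM. Hspa1a went from 74.4 to 854 CPM at P2, with a small step down between the 80th and 95th percentiles (614.5 and 589 CPM), and from 347 to 9524 CPM in the adult, higher at each step. Klf2 was higher at each step at P2, from 1019 to 3722 CPM, and in the adult stayed between 469 and 583 CPM up to the 90th percentile, then reached 766 and 1109 CPM. The endocardium markers went from 914 to 229 CPM at P2, and the pan-endothelial list moved from 5994 to 7300 CPM at P2 and from 8298 to 7494 CPM in the adult.

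**Figure D5:**
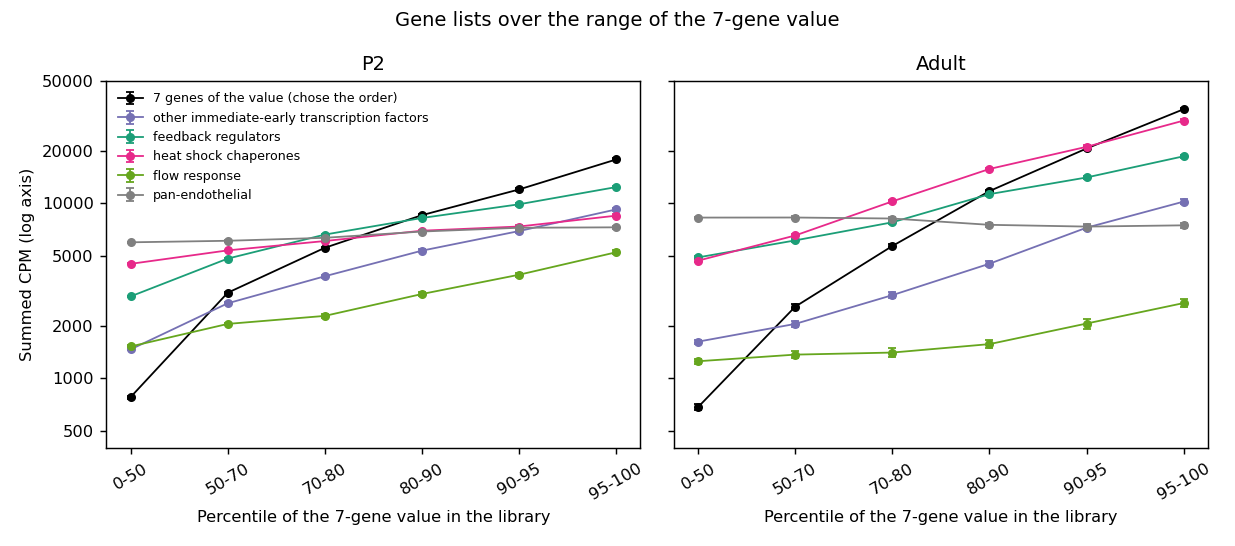
Lines give the summed CPM of 6 lists on a log axis in cells grouped by percentile of the 7-gene value at P2 (left) and in the adult (right), with exact 95% counting intervals, most of them smaller than the points. The black line is the set of genes that ordered the cells, the lists of other immediate-early factors and feedback regulators climb in both libraries, and heat shock chaperones climb from 4708 to 29720 CPM in the adult.

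Markers of other cell types were looked for in the chosen cells, since the sort need not be complete. At P2 the 6 macrophage markers had 2 UMIs in all chosen cells, and Ptprc and Fcgr1 were at 0. In the adult they had 394 UMIs, 430 CPM against 11.7 CPM in low cells, led by Lyz2, but these came from 10 of the 411 chosen cells. Adult cells between the 80th and 90th percentiles, which were not chosen, had more of these markers, at 985 CPM. A cluster led by Lyz2, Ccl21a and Cd74 held 14 chosen cells. It met the limits for macrophages, with 3 markers and a mean log2 ratio of 3.84, but was left unnamed. Fibroblast markers were at 421 CPM in chosen and 602 CPM in low cells at P2 and at 1506 and 598 CPM in the adult, led by Dcn. Their UMIs were found in 13.3% of chosen and 34.9% of low cells at P2, and in 11.7% and 11.8% in the adult, where 41 of the 411 chosen cells held 99.5% of the fibroblast UMIs of chosen cells. The fibroblast-like adult cluster held 13 chosen cells. Erythroid markers were lower in chosen cells, at 4.19 against 14.3 CPM and 40.4 against 81.0 CPM, and Alas2 was at 0. Platelet markers were at 22.5 against 19.0 CPM at P2 and 69.9 against 22.1 CPM in the adult, cardiomyocyte markers at 145 against 79.3 CPM and 182 against 80.4 CPM, and mural markers at 37.3 against 31.9 CPM and 360 against 288 CPM. Within clusters the ratios of cardiomyocyte markers were 1.15 and 1.84 and those of mural markers 0.478 and 0.631. Without every cell that held a UMI of these non-erythroid types or at least 10 erythroid UMIs, the remaining cells were ranked anew, and their top 10% were 266 cells at P2 and 279 in the adult. Cells left out in this way were 50.9% of the chosen and 56.2% of the low cells at P2, and 42.1% and 29.0% in the adult, where chosen cells were also the deeper ones. The other immediate-early factors then had ratios of 5.76 and 4.82, feedback regulators 3.83 and 3.14, and heat shock chaperones 1.75 and 5.40. Just under the fold were then Atf4 and Hmox1 at P2, at 1.95 each, and Klf2 and Sgk1 in the adult, at 1.95 and 1.96. A doublet score over 0.15 was reached by 1.87% of chosen and 2.11% of low cells at P2 and by 3.65% and 0.974% in the adult, and without such cells the immediate-early ratio was 5.58 and 5.44. Chosen within 4 ranges of depth, it was 5.22 and 5.47.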

How the data were processed

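Counts were used as the authors deposited them, UMIs per gene and barcode in whole numbers for 27998 genes, without normalization. Per the study's methods and processing notes sorted cells were frozen, thawed and loaded for 3' libraries of the v2 chemistry, which the authors counted with Cell Ranger 2.2 on mm10. The E15, P2 and adult files hold called cells, and E12 barcodes were called here at a share of 0.1 of the 0.99 quantile of the 3000 deepest ones. The P2 library held 29645059 UMIs in 5884 cells and the adult library 7650091 in 4242, so counting error is wider in the adult. Gene positions are from GENCODE M21 (GRCm38), and 1 immediate-early gene of the lists, Cebpd, was not analysed here.

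All barcodes were kept, doublets included. Ratios of CPM had exact conditional binomial intervals, sums exact Poisson and shares exact binomial intervals, which cover counting error only, at 95%. The calculations were tested on simulated data. Clusters were made in each library from 2000 variable genes outside the 10 lists of response and endothelial genes, 30 components, 20 neighbours and Leiden resolution 1 (Python 3.11.15, numpy 2.4.6, scipy 1.17.1, scikit-learn 1.9.0, leidenalg 0.10.2). A ratio within clusters weights each cluster by the UMIs of its chosen cells, so deeper clusters count for more per cell. Doublet scores followed Scrublet with 0.8% doublets expected per 1000 cells.

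Members and lists were chosen with earlier results of these data known. Named genes were the 7 genes of the value, the 5 members of each list with the highest mean CPM, and, outside the lists and at 50 CPM or more, the 10 highest and 10 lowest ratios by the smaller of both libraries and the 5 highest and 5 lowest of each library. Some genes that this rule names are not reported here. Others are said to be named after their values were seen. Alternatives changed the share chosen, the cells compared, depth, the endothelial condition, barcode limits, doublets, other cell types, the denominator, the gene filter and the composition by cluster. The resolution 0.5 was added after the data were seen.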

Additional observations from a re-analysis of the deposited data

Results flagged for a closer look

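Results that pointed in opposite directions at P2 and in the adult, with counting intervals on opposite sides of 1, were found for 3 of the lists of response genes and cell markers. The pan-endothelial list had a ratio of chosen to low cells of 1.21 at P2 and 0.896 in the adult. Within clusters it had 1.08 and 0.899. Artery markers had 2.15 at P2 and 0.675 in the adult, and 1.06 and 0.712 within clusters. Fibroblast markers had 0.699 at P2 and 2.52 in the adult, and 1.51 and 0.824 within clusters. The 3 genes of the endothelial condition, used in choosing the cells, had 1.10 and 0.770, and ribosomal protein genes 1.00 (1.0003 to 1.0071) and 0.900. With 1 library a stage the difference between the stages was not tested for any of them. Single genes past the fold in opposite directions were Stmn2 (2.24 at P2, 0.471 in the adult), Hey1 (2.04 and 0.482), Fbln5 (2.51 and 0.394), Lhfp (0.341 and 2.85), Mfap5 (0.318 and 6.14) and Ifi27l2a (0.427 and 2.59). Within clusters none of the 6 stayed past the fold in both directions, with 1.18 and 0.759 for Stmn2, 1.03 and 0.757 for Hey1, 1.68 and 0.737 for Fbln5, 0.662 and 1.24 for Lhfp, 0.697 and 3.56 for Mfap5 and 0.578 and 2.28 for Ifi27l2a. Stmn2, Hey1 and Fbln5 are artery markers, and all 6 were named after their values were seen.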

How the results depend on the processing

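Each choice was changed on its own, and the cause of a change was not tested unless the alternative itself shows it. For the other immediate-early factors the ratio at P2 and in the adult was 6.30 and 6.31 with the top 5% chosen, 4.52 and 4.10 with the top 20%, 3.27 and 3.83 against all other endothelial-marker cells, and 5.76 and 4.82 without cells holding markers of other types. It was 4.92 (chosen after thinning to 1000 UMIs) and 5.22 (within depth ranges) at P2, 5.17 in the adult with at least 3 endothelial UMIs, 5.20 and 5.70 within clusters, and 5.38 and 5.80 at resolution 0.5. Feedback regulators had 4.21 and 3.78 with the top 5%, 3.26 and 2.82 with the top 20%, 2.51 and 2.54 against all other cells, and 3.45 and 3.16 within clusters. They had 3.53, 3.61, 3.84 and 3.62 at P2 (thinned, depth ranges, without doublet scores over 0.15, resolution 0.5), and 3.14 (without other types) and 3.43 (UMIs outside the 7 genes) in the adult.

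Counts of genes past the fold moved more. At P2 the higher ones numbered 92 against all other cells, 64 with a filter of 100 CPM and 1389 with none, where 1 or few UMIs pass the fold. The adult counts were 67 and 1478 under the last pair. Lower genes at P2 numbered 144 (top 20%), 145 (all other cells), 17 (within clusters), 30 (resolution 0.5), 46 (100 CPM) and 4066 (no filter). In the adult they numbered 449 (top 5%), 111 (top 20%), 150 (resolution 0.5), 24 and 3295. Thinned to 500 UMIs, the 7-gene level was 791 CPM at E15 and 5351 CPM in the adult.

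These ratios were past the fold and crossed 1. At P2 the macrophage markers, with 2 UMIs, had 0 in the top 5%. Within clusters Ahsg had 1.60 and Ctsh 1.02, and at resolution 0.5 Ahsg had 1.28. In the adult platelet markers had 0.991 within depth ranges, and fibroblast markers 0.566 with at least 3 endothelial UMIs, 0.824 within clusters and 0.825 at resolution 0.5. Without cells holding markers of other types, erythroid markers had 1.35, Bace2 1.07, Ccl2 7.54, Gsn 0.782 and Vcam1 1.03. Within adult clusters valve markers had 1.01, dividing markers 1.17, Ccl2 1.68 and Cgnl1 1.11, and at resolution 0.5 Ccl2 1.17 and Cgnl1 1.08. Ratios nearer to 1 crossed it more often, among them at P2 within clusters Ccl2 with 2.04, fibroblast markers with 1.51, capillary markers with 0.952 and mural markers with 0.478, and in the adult mural markers with 0.631.

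No paired analysis was possible because each stage has 1 library, all numbered 1. The adult endothelial-marker cells have 7393024 UMIs and those of P2 29578080, so ratios of genes near 20 CPM are the least precise there.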
